A study of Mus musculus with 2 samples.

Results

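The mitochondrially encoded genes are the genes that lie on the small circular genome inside the mitochondrion itself. They were selected here as all genes of the deposited expression table whose symbol starts with mt-, which gave 37 of 37451 genes. Of these, 13 encode proteins, 2 encode ribosomal RNA (rRNA) and 22 encode transfer RNA (tRNA). All 37 were listed at 0.00 FPKM (fragments per kilobase of exon relative to all mapped fragments) in both libraries, so no difference between the genotypes could be calculated for any of them.

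The study sequenced RNA from bone marrow-derived macrophages (BMDMs) as a control for the mapping of binding sites of tristetraprolin (TTP), an RNA-destabilizing protein encoded by *Zfp36*. The control comprised 1 library from WT cells and 1 library from ΔM cells, in which floxed *Zfp36* (TTP fl/fl) is removed from myeloid cells through LysMCre, in which the lysozyme M locus drives the Cre recombinase. Mice were C57BL/6, aged 7 to 9 weeks, and the WT cells came from littermates. Both cultures were labeled with 100 μM 4-thiouridine for 16 h and were stimulated with 10 ng/ml lipopolysaccharide (LPS) for 6 h, so neither library represents resting cells. Each genotype has 1 library and thus no replicates, no difference between the libraries has a replicate check, and no p-values were calculated.

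Mitochondrial DNA is transcribed from both strands into long precursor RNAs, from which the tRNAs are cut out and thereby release the rRNAs and mRNAs between them. The mRNAs encode core subunits of the respiratory chain complexes I, III and IV and of the ATP synthase, complex V. The remaining subunits, all of complex II, and the proteins that transcribe, process and translate the mitochondrial RNAs are encoded in the nucleus. Nuclear chromosomes also carry copies of mitochondrial DNA that were inserted in the course of evolution, and these copies can be close to identical in sequence to their source.

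The mitochondrial sequence in NCBIM37 (mm9) is 16299 nt long, and the 37 genes occupy most of it. All 37 had the same coordinates in the deposited table and in the GENCODE M1 annotation. The protein-coding genes span 204 to 1824 nt and contain 31.9 to 41.1% G and C. Only *mt-Nd6* among them lies on the minus strand. The tRNA genes span 59 to 75 nt, with 14 on the plus and 8 on the minus strand. The shortest is *mt-Ts2* and the longest *mt-Tl1*, and their sequences are given to show that a whole tRNA is shorter than a single read of 100 bp and than the mean fragment (about 200 nt, estimated from the values). *mt-Ts2* directly follows *mt-Th*, another tRNA gene, and their adjoining sequences illustrate the dense packing of the genome.
mt-Ts2 (chrM:11613-11671, plus strand): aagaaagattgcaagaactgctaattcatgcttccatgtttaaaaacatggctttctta
mt-Tl1 (chrM:2676-2750, plus strand): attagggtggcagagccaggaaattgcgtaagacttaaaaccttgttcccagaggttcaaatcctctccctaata
mt-Th (chrM:11546-11612, plus strand): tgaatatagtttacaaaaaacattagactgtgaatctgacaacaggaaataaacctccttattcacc

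The second set of sequences shows how closely a nuclear copy can resemble a mitochondrial gene. *mt-Co1* encodes the catalytic subunit of cytochrome c oxidase (complex IV), and *Gm13340* is a nuclear pseudogene on chromosome 2 that matches it over 1545 nt. Over the first 120 nt, 3 bases differ, which are printed in capitals. Both sequences are in the direction of *mt-Co1*.
mt-Co1 (chrM:5328-5447, plus strand): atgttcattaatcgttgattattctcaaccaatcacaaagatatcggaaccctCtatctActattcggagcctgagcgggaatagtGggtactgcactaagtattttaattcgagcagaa
Gm13340 (chr2:22445048-22445167, minus strand): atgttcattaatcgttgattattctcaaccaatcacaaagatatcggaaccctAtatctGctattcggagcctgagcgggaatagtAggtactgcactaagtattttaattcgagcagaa

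Complex I, the NADH dehydrogenase through which electrons enter the respiratory chain, has 7 mitochondrially encoded subunits. *mt-Nd1* (mm9, mitochondrial positions 2751 to 3707), *mt-Nd2* (3914 to 4951) and *mt-Nd3* (9459 to 9806) were listed at 0 FPKM in either library. *mt-Nd4l* (9877 to 10173), *mt-Nd4* (10167 to 11544), *mt-Nd5* (11742 to 13565) and *mt-Nd6* (13552 to 14070) were likewise listed at 0 FPKM in both. The only mitochondrially encoded subunit of complex III, cytochrome b, is the product of *mt-Cytb* (14145 to 15288), which was listed at 0 FPKM in WT and ΔM. *mt-Co1* (5328 to 6872), *mt-Co2* (7013 to 7696) and *mt-Co3* (8607 to 9390) encode the core of complex IV, and all were listed at 0 FPKM in both libraries. *mt-Atp8* (7766 to 7969) and *mt-Atp6* (7927 to 8607), which encode membrane subunits of the ATP synthase, were listed at 0 FPKM in both libraries as well. No protein-coding gene therefore had a higher value in one genotype than in the other.

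The genes for mitochondrial rRNA gave the same listing. *mt-Rnr1* (70 to 1024), which encodes the RNA of the small ribosomal subunit, was at 0 FPKM in WT and in ΔM. *mt-Rnr2* (1094 to 2675), the gene for the large subunit RNA, was also at 0 FPKM in both. The RNA had been depleted of rRNA before the libraries were made. The 22 tRNA genes were at 0 FPKM in both libraries, so that none was listed at 0 in only one of them.

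Some of these genes share bases. *mt-Atp8* and *mt-Atp6* overlap by 43 nt and *mt-Nd4l* and *mt-Nd4* by 7 nt on the same strand, whereas *mt-Nd5* and *mt-Nd6* overlap by 14 nt on opposite strands. The other 6 overlaps between neighboring genes are of 1 to 3 nt, 4 of them on the same strand. Genes with an overlap and genes without one were listed at the same value.

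A listing at 0 was frequent in the table, but not to this extent in any set of nuclear genes examined. Of the 37414 genes outside the mitochondrial genome, 13253 (35.4%) were at 0 in both libraries. Among the 22246 nuclear protein-coding genes, 22.0% were at 0 in both, compared with 13 of 13 in the mitochondrial genome. Among the 5416 nuclear genes with transcripts under 200 nt, which are the counterpart of the tRNA genes in length, 69.9% were at 0 in both, compared with 22 of 22. In WT, 21466 genes of the table were above 0, and in ΔM 21269 were.

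The mitochondrial genome was also the only one of the 22 chromosomes in the plot by chromosome with no gene above 0. Among the 21 nuclear chromosomes, the share of genes above 0 in WT ranged from 42.9% on chromosome Y to 69.4% on chromosome 19. In ΔM it ranged from 43.3% on chromosome X to 67.8% on chromosome 19.

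**Figure D1:**
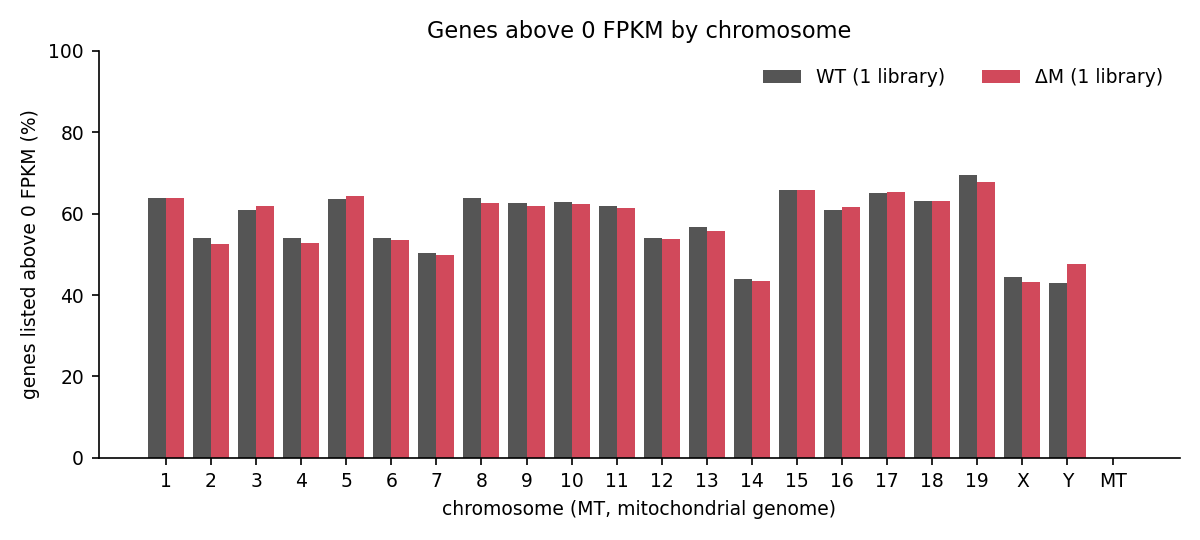
Share of the genes of each chromosome listed above 0 FPKM, in percent, in the WT library (gray bars) and the ΔM library (red bars). Every nuclear chromosome lies above 40% in both libraries, and the mitochondrial genome (MT) has 0 of 37 genes above 0.

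The depth of the libraries gives the scale on which a value of 0.00 can be read. Depth is not stored with FPKMs and was derived from the spacing of low values, since the FPKM of a gene with few fragments rises in equal steps of 1 fragment, whose size depends on the length of the gene. The estimate was 36950000 fragments with a mean length of 200 nt in WT, and 32500000 fragments with a mean length of 198 nt in ΔM. With these estimates, 91.4% of 1250 low values from WT and 92.0% of 1236 from ΔM were within 0.1 fragments of a whole number. A single fragment on *mt-Co1* would then have given 0.0201 FPKM in WT, or 0.0228 FPKM in ΔM. On the longest gene, *mt-Nd5*, it would have given 0.0167 FPKM in WT, or 0.0189 FPKM in ΔM, and on *mt-Nd4l* 0.276 FPKM and 0.308 FPKM. All these values lie above 0.005 FPKM, the limit under which a value rounds to 0.00 at 2 decimals. The listed value of *mt-Nd5* and of the other protein-coding and rRNA genes longer than the fragments therefore corresponds to less than 1 assigned fragment in each library, if the estimate of depth holds. *mt-Atp8* and the tRNA genes are too short for this calculation. Whether the mitochondrial genome was part of the reference for mapping and of the genes quantified is not given in the sources used here. If it was not, a value of 0.00 means that fragments were not counted, whatever their number. The level of the RNAs in the cells cannot be read from such a listing.

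The nuclear genome was searched for copies because the authors kept uniquely mapped reads, and a read that matches both genomes is not unique if both were in the reference used for mapping. The search gave 135 alignments on 19 sequences, which together cover 15749 nt, or 96.6%, of the mitochondrial genome. The longest lies at chr1:24618374-24623027 on the minus strand, has 4654 aligned positions and is 99.94% identical to mitochondrial positions 6390 to 11042, from the 3′ part of *mt-Co1* into *mt-Nd4*. It differs from the mitochondrial sequence by 2 substitutions and 1 inserted base. The substitutions are A6393T in *mt-Co1* and T9461C in *mt-Nd3*, with the mitochondrial base first, positions counted from 1 at the start of the mitochondrial sequence, and then the nuclear base. The extra nuclear base follows position 9824 in the arginine tRNA gene *mt-Tr* and lengthens a run of A. Between these differences, stretches of 3067 nt, 363 nt and 1218 nt are identical. The surroundings of the internal differences are shown in the direction of the mitochondrial plus strand, with the base that differs in capitals, because they are the only places inside the alignment where reads from either origin can be separated apart from its first bases.
end of mt-Tg and start of mt-Nd3 (chrM:9441-9481): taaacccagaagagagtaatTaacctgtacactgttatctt
chromosome 1 copy (chr1:24619936-24619976): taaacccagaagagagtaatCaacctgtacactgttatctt
end of mt-Nd3 and start of mt-Tr (chrM:9805-9844): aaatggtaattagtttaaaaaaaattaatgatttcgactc
chromosome 1 copy (chr1:24619572-24619612): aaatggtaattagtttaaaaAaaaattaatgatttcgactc

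How much of each gene has such a copy was measured with all windows of 100 nt, the length of 1 read. Over the 13 protein-coding genes, 3654 of 10116 windows (36.1%) were present without a mismatch in the nuclear genome. The share was 100% in *mt-Co2*, *mt-Atp8*, *mt-Atp6*, *mt-Co3* and *mt-Nd4l*. It was 98.8% in *mt-Nd3*, 60.8% in *mt-Nd4*, 30.8% in *mt-Co1* and 3.19% in *mt-Nd2*. No window of *mt-Nd1*, *mt-Nd5*, *mt-Nd6* and *mt-Cytb* had an identical nuclear match. In the rRNA genes the share was 0% for *mt-Rnr1* and 1.21% for *mt-Rnr2*. When up to 2 mismatches were allowed, the share rose to 71.1% in *mt-Co1*, 12.1% in *mt-Nd2*, 10.5% in *mt-Rnr2*, 9.62% in *mt-Nd5* and 1.90% in *mt-Nd6*, and it was still 0 in *mt-Nd1*, *mt-Cytb* and *mt-Rnr1*. The genes listed at 0 comprise genes in which every window has an identical nuclear copy and genes in which none has, and the part of such copies in the listing was not tested.

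**Figure D2:**
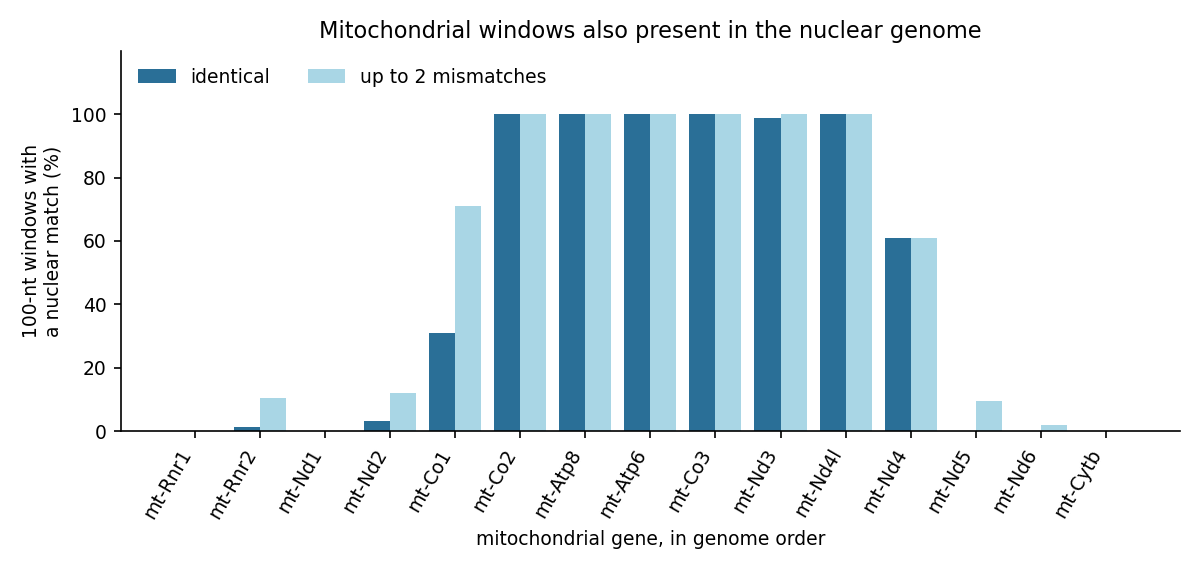
Share of all 100-nt windows of each mitochondrial protein-coding and rRNA gene that has a match in the nuclear genome (mm9), in percent, for identical matches (dark bars) and matches with up to 2 mismatches (light bars), with genes in genome order. Identical matches fill the block from *mt-Co2* to *mt-Nd4l* and are at 0 in *mt-Nd1*, *mt-Nd5*, *mt-Nd6* and *mt-Cytb*.

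The copies themselves were in part listed above 0. Annotated nuclear genes with at least 50% of their exon bases inside an alignment numbered 19, of which 17 are annotated as pseudogenes, and all lie in the same sense as the mitochondrial gene they match. Of the 19, 7 had a mean of at least 1 FPKM over the 2 libraries. Among the 17 pseudogenes the number was 5, whereas 17.1% of all 5181 listed pseudogenes reached this level. The rule for copies was set after the listing of the mitochondrial genes had been seen.

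The 5 copies that are at least 95% identical to the mitochondrial genome were at 2.53 to 20.88 FPKM in WT (median 7.26) and at 2.66 to 19.61 FPKM in ΔM (median 11.3). The 5 copies with 85 to 95% identity were at 0.49 to 7.50 FPKM in WT (median 0.68) and at 0.25 to 2.12 FPKM in ΔM (median 0.77). The 9 copies under 85% identity did not exceed 0.26 FPKM in WT, or 0.29 FPKM in ΔM. In ΔM, all of the closest copies therefore had higher values than the more distant ones. The same held in WT except for *Gm12155*, a more distant copy, which at 7.50 FPKM lay above the median of the closest copies. The 5 closest copies lie in only 2 insertions, on chromosomes 1 and 2, and are not independent of each other.

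*Gm10925* and *Gm10222* lie inside the chromosome 1 copy and are identical to the mitochondrial sequence over their entire length. *Gm10925* matches 772 nt of *mt-Atp8* and *mt-Atp6* and was at 20.88 FPKM (95% Poisson interval 19.0 to 22.9) in WT compared with 19.61 FPKM in ΔM (17.7 to 21.7). These values correspond to about 442 and 366 fragments. No difference from the mitochondrial genome lies within 1396 nt before and 857 nt after this copy, so that fragments of about 200 nt from it and from the mitochondrial genes cannot be told apart by sequence. *Gm10222* matches the 297 nt of *mt-Nd4l* and was at 7.26 FPKM (4.75 to 10.6) in WT compared with 11.26 FPKM in ΔM (7.91 to 15.5), from about 26.3 and 36.6 fragments. The nearest difference is 52 nt away on one side and the end of the alignment 869 nt away on the other. In both copies the intervals of WT and ΔM overlap, and these intervals cover counting error only. For *Gm10222*, which is not much longer than the mean fragment, the overlap rests on subtracting the fragment length from the gene length. Without this subtraction its values correspond to about 79.7 fragments in WT and 109 in ΔM, which gives narrower intervals. Whether those would overlap was not calculated. The mitochondrial genes with the identical sequence, *mt-Atp8*, *mt-Atp6* and *mt-Nd4l*, were at 0.

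The chromosome 2 insertion holds *Gm13340*, *Gm13341* and *Gm13339*. *Gm13340*, the copy of *mt-Co1* shown above, is 97.61% identical and was at 15.35 FPKM (14.3 to 16.5) in WT compared with 17.23 FPKM in ΔM (16.0 to 18.5), or about 763 and 755 fragments. *Gm13341*, a copy of *mt-Co2* with 97.62% identity, was at 3.94 FPKM in WT compared with 3.75 in ΔM. *Gm13339*, which matches part of *mt-Nd2* with 96.67% identity, was at 2.53 FPKM in WT compared with 2.66 in ΔM. The intervals of *Gm13340* overlap between the libraries. The corresponding *mt-Co1*, *mt-Co2* and *mt-Nd2* were at 0.

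On chromosome 4, *Gm11408*, *Gm11410* and *Gm11407* match *mt-Nd6*, *mt-Cytb* and *mt-Nd5* with 93.64%, 92.83% and 92.34% identity. *Gm11408* was at 0.68 FPKM in WT compared with 0.77 in ΔM, *Gm11410* at 0.49 and 0.42 FPKM, and *Gm11407* at 0.53 and 0.25 FPKM. On chromosome 11, *Gm11512*, a copy of part of *mt-Co1*, was at 1.40 FPKM in WT compared with 0.99 in ΔM. *Gm12155*, a copy of 160 nt of *mt-Co2* with 88.12% identity, was at 7.50 FPKM in WT compared with 2.12 in ΔM. It is shorter than the mean fragment, and no interval was calculated for it. Whether the fragments counted on these copies came from nuclear or from mitochondrial transcripts was not tested.

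**Figure D3:**
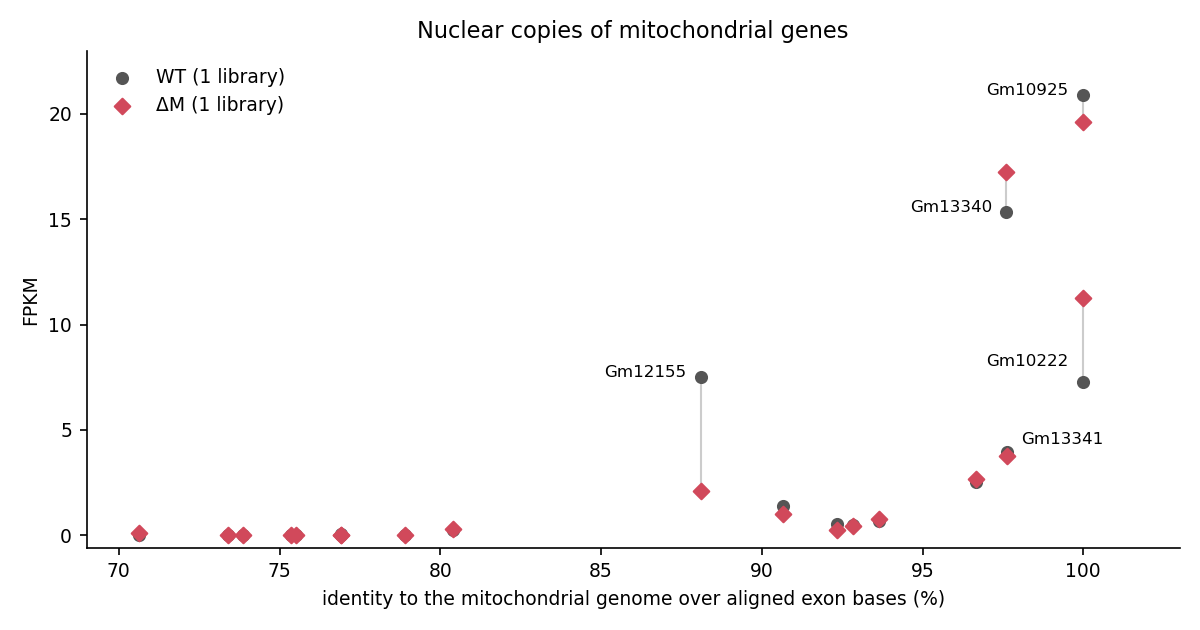
FPKM of the 19 nuclear genes that copy mitochondrial sequence (vertical axis) against their identity to the mitochondrial genome over aligned exon bases in percent (horizontal axis), with WT as gray circles and ΔM as red diamonds joined by a line for each gene. Values above 8 FPKM occur at identities above 97%, and the 9 copies below 85% stay at or below 0.29 FPKM.

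The nuclear genes whose products work together with the mitochondrial ones gave the opposite listing. Of 76 symbols listed as nuclear subunits of complexes I to V, 75 were in the table, and 0 of these were at 0 in both libraries, compared with 13 of 13 mitochondrially encoded subunits. The lists place *Ndufa4* with complex I rather than IV, and *Atpif1*, an inhibitory factor and not a subunit, with complex V. The counts and medians below keep this grouping. The median of the 75 nuclear genes was 16.5 FPKM in WT compared with 16.8 in ΔM. The highest was *Atp5b*, the catalytic β subunit of the ATP synthase, at 260.49 FPKM in WT compared with 282.58 in ΔM. The lowest was *Atp5g2*, a gene for the c subunit of the same enzyme, at 0.06 FPKM and 0.20 FPKM.

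The 2 genotypes were compared for these genes on the scale of log2(FPKM + 1), which understates the change of low genes, restricted to genes averaging at least 1 FPKM. Fewer cells of a type and less RNA per cell cannot be told apart in such bulk samples. Among 8046 nuclear protein-coding genes, 380 (4.72%) were at least 1.5-fold higher in ΔM and 421 (5.23%) at least 1.5-fold lower, and the median log2 ratio of ΔM to WT was -0.00152. Of the 35 nuclear subunits of complex I tested, 1 was higher and 1 lower by this measure, with a median log2 ratio of -0.02. Of the 4 subunits of complex II none passed in either direction (median -0.05). Among the 9 subunits of complex III and the 9 of complex IV, 1 each was lower (medians -0.03 and -0.07), and among the 15 of complex V none passed (median 0.08). At a mean of at least 10 FPKM the medians were -0.13 for 7 subunits of complex IV and 0.06 for 10 of complex V. After centring on the median of all genes (0.0284), the medians of complexes I, II, III and V were -0.04, -0.08, -0.06 and 0.05. The members with the largest differences were *Ndufab1*, *Uqcrq* and *Cox7b* in one direction and *Ndufb3* and *Atp5g1* in the other. *Ndufab1*, the mitochondrial acyl carrier protein, was at 2.70 FPKM (1.82 to 3.85) in WT compared with 1.25 FPKM in ΔM (0.654 to 2.16). *Ndufb3* of complex I was at 1.10 FPKM (0.697 to 1.65) and 2.17 FPKM (1.55 to 2.96), and *Atp5g1*, another gene for the c subunit, at 2.46 FPKM (1.79 to 3.29) and 4.06 FPKM (3.13 to 5.17). In these 3 genes, which include both complex I genes counted above, the counting intervals of the libraries overlap. *Uqcrq* of complex III was at 14.79 FPKM (12.4 to 17.5) and 9.21 FPKM (7.27 to 11.5), and *Cox7b* of complex IV at 78.34 FPKM (73.4 to 83.5) and 45.81 FPKM (41.8 to 50.1), without overlap.

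The other genes named from each complex differed by less than 1.5-fold after adding 1 FPKM. In complex I, *Ndufs3* was at 1.65 FPKM in WT compared with 2.76 in ΔM, and *Ndufa5* at 19.61 and 15.15 FPKM. In complex II, *Sdhc* was at 142.33 and 121.53 FPKM, *Sdha* at 111.51 and 102.84 FPKM, *Sdhb* at 50.22 and 51.67 FPKM, and *Sdhd* at 18.85 and 19.11 FPKM. In complex III, *Uqcr11* was at 10.46 and 12.60 FPKM, *Uqcrh* at 14.65 and 16.80 FPKM, and *Cyc1*, cytochrome c1, at 22.38 and 19.42 FPKM. In complex IV, *Cox5b* was at 7.96 and 9.80 FPKM, *Cox6b1* at 39.04 and 41.84 FPKM, and *Cox6c* at 11.03 and 9.72 FPKM. In complex V, *Atp5k* was at 12.93 and 16.47 FPKM, *Atp5j* at 71.47 and 51.02 FPKM, and *Atp5g3* at 102.38 and 88.37 FPKM. The counting intervals of WT and ΔM do not overlap for *Sdhc* (137 to 147 and 117 to 126 FPKM) and *Atp5j* (66.7 to 76.4 and 46.8 to 55.5 FPKM). The same holds for *Atp5g3* (98.1 to 107 and 84.2 to 92.7 FPKM). For the other genes of this paragraph they overlap.

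Genes that act on the mitochondrial genome and its RNAs included larger differences. Of 8 genes for mitochondrial transcription found in the table, 5 had a mean of at least 1 FPKM, and 3 of these were at least 1.5-fold lower in ΔM and none higher (median log2 ratio -0.68). *Polrmt*, the mitochondrial RNA polymerase, was at 9.23 FPKM (8.28 to 10.3) in WT compared with 3.22 FPKM in ΔM (2.64 to 3.89). *Mterfd1*, a member of the family of mitochondrial transcription termination factors, was at 20.59 FPKM (18.6 to 22.7) in WT compared with 11.93 FPKM in ΔM (10.3 to 13.7). *Tfam*, which packages mitochondrial DNA and initiates its transcription, was at 5.99 FPKM and 3.36 FPKM, and *Mterfd2* at 2.65 FPKM and 3.69 FPKM. The intervals of *Polrmt* and *Mterfd1* do not overlap between the libraries. *Tfam* was added for its role after its values had been seen. As the transcripts themselves were listed at 0 in both libraries, these values could not be compared with the level of mitochondrial RNA.

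Of 5 regulators of mitochondrial biogenesis tested, 2 were at least 1.5-fold lower and none higher (median -0.24). These were *Gabpa*, at 7.05 FPKM in WT compared with 3.97 in ΔM, and *Gabpb1*, at 9.18 and 5.36 FPKM, which encode the subunits of the transcription factor GABP. *Ppargc1a*, which encodes the coactivator PGC-1α, was listed at 0 in both libraries. Of the 17 genes for processing and stability of mitochondrial RNA, 2 were higher and 1 was lower (median 0.11). *Supv3l1*, a helicase for RNA decay, was at 2.81 and 5.45 FPKM, and *Trnt1*, which adds the CCA end to tRNAs, at 6.48 and 11.30 FPKM. *Ptcd1* was at 4.72 and 2.80 FPKM and *Fastkd2* at 7.41 and 5.11 FPKM, both RNA-binding proteins of the mitochondrion. Of the genes for replication of mitochondrial DNA, only *Polg*, the DNA polymerase, at 10.49 and 8.98 FPKM, and *Rnaseh1*, at 2.92 and 3.16 FPKM, had a mean of at least 1 FPKM.

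For translation in the mitochondrion, 3 of 70 ribosomal protein genes tested were higher and 2 lower (median -0.06, or -0.13 for the 24 with a mean of at least 10 FPKM). *Mrps16* was at 2.29 FPKM in WT compared with 4.92 in ΔM and *Mrpl28* at 6.40 and 11.33 FPKM, whereas *Mrps21* was at 32.89 and 20.57 FPKM and *Mrpl19* at 10.29 and 6.24 FPKM. Of the 14 aminoacyl-tRNA synthetases, which charge the mitochondrial tRNAs, 1 was higher and none lower (median -0.01, or -0.21 for the 3 with a mean of at least 10 FPKM). This was *Vars2*, the enzyme for valine, at 1.06 FPKM (0.662 to 1.61) in WT compared with 3.77 FPKM in ΔM (2.93 to 4.78). *Wars2* was at 0.76 and 1.38 FPKM, and *Rars2* at 10.08 and 8.10 FPKM. Of 8 other mitochondrial proteins none passed in either direction (median 0.07), with *Hspd1* at 2.26 and 3.11 FPKM, citrate synthase (*Cs*) at 7.60 and 9.16 FPKM, *Hspa9* at 9.74 and 6.56 FPKM, and *Vdac3* at 1.82 and 1.58 FPKM.

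**Figure D4:**
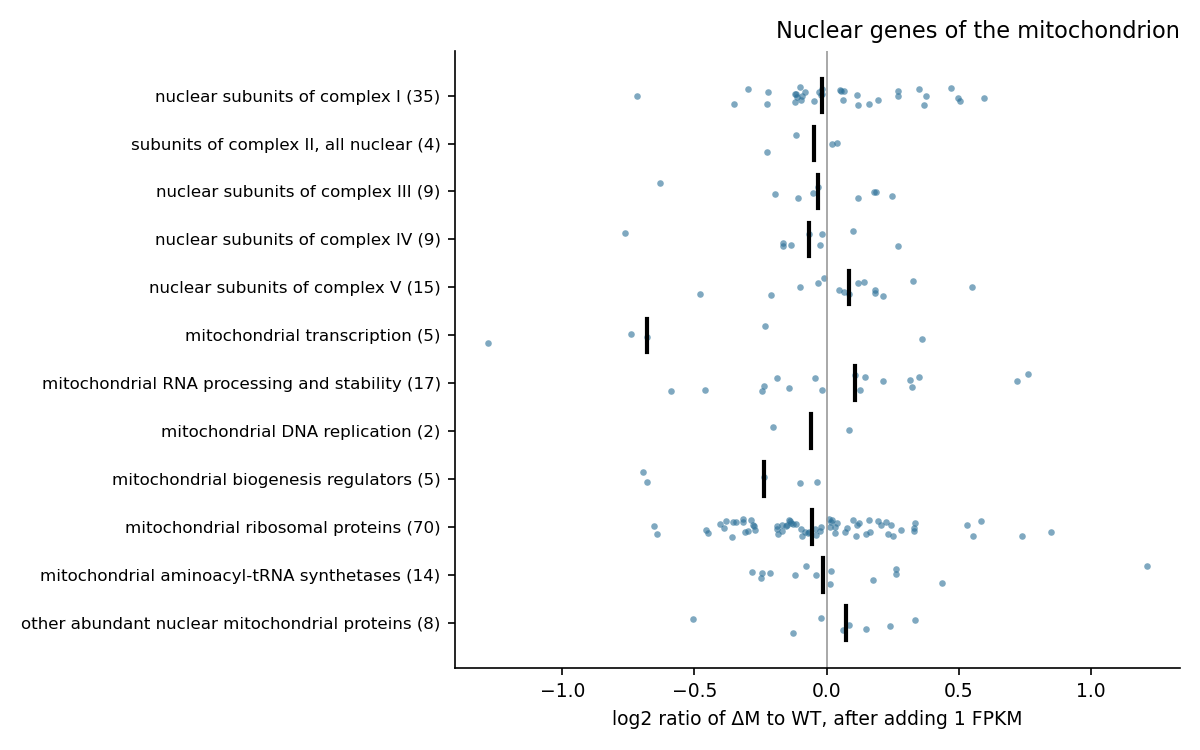
Log2 ratio of ΔM to WT after adding 1 FPKM (horizontal axis) for nuclear genes of the mitochondrion averaging at least 1 FPKM, by list with the number of genes tested in parentheses, each point being 1 gene and each black line the median of its list. The medians lie between -0.07 and 0.11 except for transcription (-0.68) and biogenesis regulators (-0.24).

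The identity of the libraries was checked on genes outside the mitochondrion. *Zfp36*, the gene targeted in ΔM, was at 65.26 FPKM in WT compared with 16.71 in ΔM, a log2 ratio of -1.90. Most macrophage markers were above 100 FPKM in both, with *Csf1r*, the receptor for the macrophage growth factor M-CSF, at 104.15 and 119.22 FPKM and *Cd68*, a lysosomal glycoprotein of macrophages, at 387.55 and 389.58 FPKM. *Mrc1*, the mannose receptor, was lower, at 5.45 and 11.56 FPKM. *Lyz2*, the locus from which the Cre recombinase is expressed in ΔM, was at 2480.86 and 1356.26 FPKM. All 8 macrophage markers found were above 0 in both libraries and summed to 4004 FPKM in WT compared with 2872 in ΔM, or to 1523 and 1516 FPKM for the 7 markers without *Lyz2*. The summed markers of each other cell type examined did not exceed 1.04 FPKM in WT, or 0.80 FPKM in ΔM, the highest being T cells through *Cd4*. The values of these cells' nuclear genes were thus in the table at high levels while the mitochondrial genes were at 0.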

How the data were processed

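The deposited values are FPKMs per Ensembl gene, which the authors calculated with Cufflinks on Ensembl exons after trimming reads with Cutadapt, mapping them to mm9 with Segemehl and keeping uniquely mapped reads. The strand setting is not given in the sources used here. Values have 2 decimals, except for 5 values in WT and 3 in ΔM above 0 but under 0.005, which were treated as 0. In ΔM, 1 gene has no number. Gene types and lengths came from GENCODE M1, which held 37039 of the 37451 identifiers.

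Fragments were estimated from steps of low FPKMs of single-transcript genes of 300 to 900 nt, with estimates of 36900000 to 36950000 in WT and 32500000 to 32850000 in ΔM over 3 ranges of length. The search recovered 3 simulated libraries. These were made with the formula that the search inverts and with values on its grid. Their recovery therefore checks the search only, not whether the formula holds for the deposited FPKMs. Poisson intervals (95%) use the median transcript length, are approximate and cover counting error only. The mitochondrial sequence was aligned to the nuclear genome with blastn (BLAST 2.17.0, word size 11, E value 1e-10). Sequences are from NCBIM37. Log2 ratios add 1 FPKM.

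Named were all protein-coding and rRNA members, and of each nuclear list the 2 largest log2 ratios in each direction at a mean of at least 1 FPKM, of which 1 gene is not reported here. Copies and other genes were added after values were seen. The members and lists were chosen with earlier results of these data known. Alternatives covered the filter on low values, the fold, centring, the definition of copies and the windows. Python 3.11.15, numpy 2.4.6, pandas 2.3.3, scipy 1.17.1 and matplotlib 3.10.9 were used.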

Additional observations from a re-analysis of the deposited data

How the results depend on the processing

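Of 35 alternative values calculated, 17 stayed the same and none reversed. The tolerance was 1.5 times the reported value for medians and counts of genes, and the 95% counting interval for window shares and fragments. Neighboring windows overlap and are not independent, so for window shares this interval is only a convention and measures no spread. Of 23 recalculated medians of the nuclear lists, 12 stayed within 1.5 times and all kept their sign, but at a mean of at least 10 FPKM complex II holds the same 4 genes, biogenesis regulators 2 genes, and transcription and other mitochondrial proteins 1 gene each, so that these values say nothing about stability. At a mean of at least 10 FPKM, the median log2 ratio was -0.134 for complex IV, 0.0551 for complex V, -0.134 for ribosomal proteins and -0.213 for aminoacyl-tRNA synthetases; replication genes gave none. Centring subtracts the median of all genes, 0.0284, and gave -0.0449 for complex I, -0.0768 for complex II, -0.0629 for complex III, 0.0548 for complex V, -0.0834 for ribosomal proteins, -0.043 for synthetases and 0.0452 for other mitochondrial proteins. Of nuclear protein-coding genes, 95 were at least 1.5-fold higher and 115 lower in ΔM at a mean of at least 10 FPKM, and 89 higher and 99 lower at a fold of at least 2, where fewer genes can pass by construction. The share of mitochondrial windows with a nuclear match was 44.5% with up to 2 mismatches and 31.3% for identical windows of 200 nt. The copies with a mean of at least 1 FPKM numbered 8, 6 and 5 under the other definitions, and the alternatives for copies and windows were chosen after seeing the data. Without subtracting the fragment length, *Gm13340* in WT corresponded to 876 fragments. Because all 37 mitochondrial genes were listed at 0, other settings for their log2 ratios, their share of the FPKM sum and their order were not run. No paired analysis was possible because each genotype has 1 library. Leaving out a library was not possible for the same reason. Depth limits values under about 1 fragment, and 0.00 does not give the level of an RNA in the cells.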
